A study of Mus musculus with 14 samples.

Results

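Chemokines are small secreted or membrane-held proteins that form gradients, and their receptors are G protein-coupled receptors that steer leukocytes along them. The positions of the conserved cysteines divide the ligands into CC, CXC, XC and CX3C classes, and a receptor is named for the class it binds. In tumours these proteins are known for bringing in T cells, natural killer cells, monocytes, neutrophils and dendritic cells. The genes described here are the probes of the array named Ccl, Cxcl, Cx3cl, Xcl, Ccr, Cxcr, Cx3cr or Xcr with a number, apart from Cxcr3 and its ligands Cxcl9, Cxcl10 and Cxcl11. Described here are 46 genes with 60 probes, 31 ligands and 15 receptors. Of these, 31 were well above background on at least 3 of the 14 arrays and were tested among 17031 genes, and 15 were not. Where a gene had 2 probes, which 14 of the 46 did, the brighter one was used.

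All groups were C57BL/6 mice bearing tumours of the mouse melanoma line B16F10, injected 9 days before day 0, and RNA was taken from whole tumours. In the CTL arm, mice received on day 0 cytotoxic T lymphocytes (CTLs) that carry CD90.1, are specific for the melanoma antigen gp100 and had been activated in culture, and tumours were taken on days 1, 3, 5 and 7. Untreated mice received no CTLs and were sampled on the same 4 days. A further 2 arms received the same CTLs with injections on days 0 and 2 of an antibody against interferon gamma (anti-IFNg) or of a control rat IgG, and were sampled on days 3, 5 and 7. Each array held the pooled RNA of 4 tumours in the CTL and untreated arms and of 3 tumours in the antibody and IgG arms, so a group has 1 array per day and n counts days. All arrays of a day shared a slide, and each arm lay at the same place on every slide, so place and arm cannot be told apart. The share of spots well above background ran from 48.9%, on the CTL array of day 5, to 59.7%, on the untreated array of day 7. As a check of the labelled tissue, all 7 melanocyte markers were measured, and their mean level was 5.39 to 5.82 on the CTL arrays and 5.45 to 5.76 on the untreated arrays of days 3 to 7.

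A level is the log2 of the processed signal minus the 75th percentile of its array, so 0 is that percentile. The lowest signal well above background ran from -4.65, on the antibody array of day 7, to -3.21, on the CTL array of day 5. Levels in an arm are listed in order of day, for days 1, 3, 5 and 7 in CTL and untreated tumours and for days 3, 5 and 7 in the antibody and IgG arms. Differences are means of the 3 same-day log2 differences of days 3, 5 and 7 with the standard error of the limma fit, and a gene passed at an adjusted p under 0.05 over all 17031 genes. Since each array is a pool, these errors measure variation between days and say nothing of single mice. They were pooled over all arms and moderated across genes, so a gene has the same error in every comparison of arms over days 3, 5 and 7. They are not the spread of a single comparison's own same-day differences. In bulk tumour RNA, fewer cells of a type and less RNA per cell cannot be told apart.

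The first comparison asked which chemokine genes changed in tumours that received CTLs. Inflammatory CC ligands, Xcl1, Cxcl16 and the receptors Ccr2, Ccr7 and Cxcr6 were higher with CTLs from day 3 on. Of the 31 tested members 16 were higher and 2 were lower, while 10.1% of all genes tested were higher and 21.4% were lower. Of all calls 32.1% were thus higher, and 45.0% with normexp background correction. Xcl1 was at least 9.20-fold higher, Ccl4 15.7-fold, Cxcl16 15.5-fold and Ccl5 11.9-fold. The median difference of the tested members was 1.84, beside -0.10 over all genes, but a gene bright only with CTLs entered the test because it was bright there. Among the 16 members well above background on all 14 arrays, which entered whatever the arm, 11 were higher and 2 were lower, with a median of 1.95. The share over all genes so measured was not counted. Over genes well above background on every array of an arm, 11.3% were higher and 24.9% were lower. Without day 5 the count of 16 fell to 8, namely Ccl2, Ccl5, Ccl7, Ccl12, Cxcl16, Xcl1, Ccr2 and Ccr7, and no member was lower. Over all genes 2.52% were then higher and 1.36% lower, so that 65% of all calls were higher. With normexp correction the 16 passed with 5 further members, Ccr9, Cx3cl1, Cxcl14, Cxcr4 and Xcr1, beside 12.3% of all genes. Differences were smaller there, such as Xcl1 at 1.98, Ccr2 at 1.44, Ccr7 at 1.28, Ccl3 at 2.22, Cxcl16 at 2.57, Cxcr6 at 1.36 and Ccl1 at 1.23. A fold given as "at least" therefore holds for the processed signal only, and the normexp difference of Xcl1 lies under its bound.

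The second comparison set CTLs with anti-IFNg against CTLs with IgG. Its differences came from arrays that the first comparison did not use. The standard errors of both comparisons came from the same fit to all arrays, so their calls are not independent. Here 12 of the 31 tested members were lower and none was higher, while 5.93% of all genes tested were lower and 6.61% were higher. Of all calls 52.7% were higher, and 21.8% with normexp correction. At an unadjusted p under 0.05, 1 member was higher, which was Ccl17, and 20 were lower (limma), beside 16.8% and 12.7% of all genes. The 12 were Ccl2, Ccl3, Ccl4, Ccl5, Ccl7, Ccl8, Ccl12, Cxcl14, Cxcl16, Ccr2, Ccr7 and Ccr9. Of these 10 were also among the members higher with CTLs, which is 83.3% of the 12 and 62.5% of the 16. The same overlap over all genes was not counted, so it cannot be said whether these shares are particular to chemokine genes. Cxcl14 and Ccr9 passed in the antibody comparison and not with CTLs, but with normexp correction both passed with CTLs (at 1.18 and 0.83) and neither with the antibody. Cxcl14 also passed with CTLs without the block for day. Ccl1, Ccl6, Ccl9, Ccl19, Cxcr6 and Xcl1 were higher with CTLs and did not pass in the antibody comparison, where Cxcr6 and Xcl1 passed once only the antibody and IgG arms were fitted. That fit called 7 members lower, the others being Ccl5, Ccl8, Cxcl16, Ccr2 and Ccr7, beside 3.47% of all genes. Of the 16 members measured on every array 8 were lower with the antibody, with a median of -1.34. The share over all genes so measured was again not counted. Over genes well above background on every array of an arm, 6.72% were lower. The count of 12 depends on the model and on single days. With 1 CTL effect fitted for all 4 days in place of a separate one for day 1 no member passed, beside 0.00587% of all genes lower. Without day 5 Cxcl16 alone passed, beside 0.258% of all genes. Without day 3 the members lower were Ccl2, Ccl4, Ccl7, Cxcl4 and Cxcl16, beside 1.94% of all genes, and without day 7 they were Ccl5, Ccl8, Ccl12, Cxcl16 and Ccr2, beside 4.4%. With normexp correction 8 members were lower, beside 2.95% of all genes, and the calls of Cxcl14, Ccr2, Ccr7 and Ccr9 were lost at -1.05, -0.73, -0.48 and -0.56.

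Most markers of T cells and of monocytes and macrophages were higher with CTLs, and fewer of them were lower with the antibody. Beside the counts below, 10.1% of all genes tested were higher and 21.4% lower with CTLs. With the antibody 6.61% were higher and 5.93% lower. All 8 T cell markers were tested, 7 were higher with CTLs and 4 were lower with anti-IFNg than with IgG. Their mean level on days 3 to 7 was -1.58 to -0.83 with CTLs and -4.52 to -3.50 in untreated tumours, and -3.09 to -2.15 with anti-IFNg and -1.94 to -1.07 with IgG. Of 8 monocyte and macrophage markers 7 were higher with CTLs and 5 were lower with the antibody. Their mean level was 0.85 to 1.27 with CTLs and -1.26 to -0.91 in untreated tumours, and -0.87 to -0.24 with anti-IFNg and 0.43 to 1.27 with IgG. Of 4 natural killer cell markers 2 were tested and both were higher with CTLs and lower with the antibody, and Ncr1 and Eomes were well above background nowhere. As with the chemokine genes, a marker bright only with CTLs entered the test because it was bright there. Klrb1c and the neutrophil marker Csf3r were each well above background on 3 arrays, all of the CTL or IgG arms. Of 9 neutrophil markers 4 were tested, 1 was higher with CTLs and 2 were lower with the antibody, and their mean level was -2.79 to -1.55 with CTLs, -4.80 to -3.72 in untreated tumours, -4.74 to -4.00 with anti-IFNg and -3.01 to 0.08 with IgG. The IgG array of day 7 stood apart in some of these genes, with S100a9 at 5.56, S100a8 at 1.43 and Retnlg at -1.17. No other array exceeded 2.57, -1.24 and -3.10 in the same order. Csf3r was also highest there, at -3.23, beside at most -3.57 on the other arrays. Mpo, Elane, Camp and Ngp were not highest there, at -3.44, -6.34, -6.37 and -4.51. Ngp was highest on the untreated array of day 5 (-0.51) and Camp on the antibody array of day 7 (-2.32). Of 6 dendritic cell markers 4 were tested, 2 were higher with CTLs and none passed with the antibody. Of 5 B cell markers 3 were tested, 1 was higher with CTLs and 1 was lower with the antibody. The part of these cells in the chemokine results was not tested. Of 5 endothelial markers 2 were lower with CTLs and 3 were higher with the antibody, and no melanocyte marker passed in either comparison. With CTLs 1 of 5 fibroblast markers and 3 of 4 keratinocyte markers were higher, 2 erythroid markers were lower and no muscle or adipocyte marker passed, and with the antibody none of these passed.

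**Figure D1:**
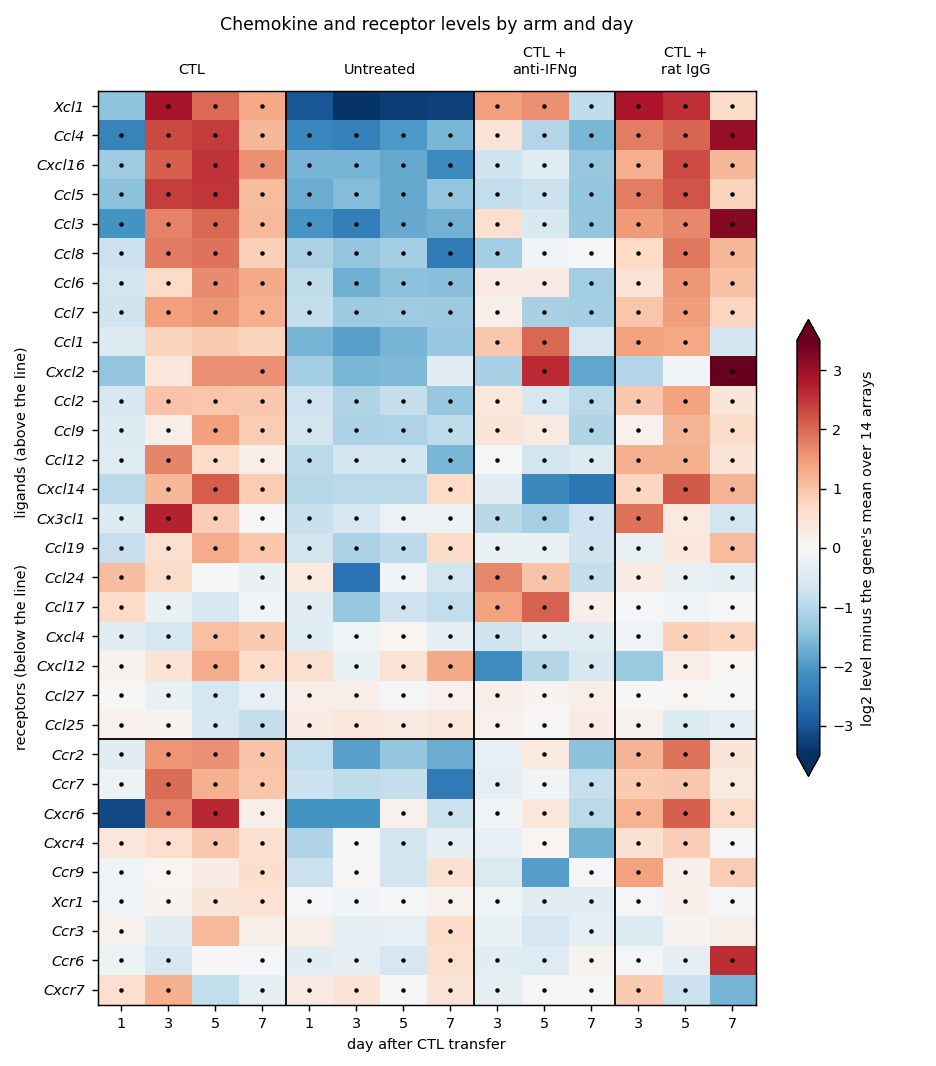
Levels of the 31 tested members (rows, ligands above and receptors below the line, each ordered by its difference between CTL and untreated tumours) on each of the 14 arrays (columns, by arm and day). Colour gives the log2 level minus the gene's own mean over the 14 arrays, and a dot marks an array on which the gene was well above background. Most rows in the upper part are red with CTLs and with IgG from day 3, and blue in untreated tumours and on the CTL array of day 1.

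Promoters were looked up for ligands with large differences in either main comparison, to show what sequence lies upstream of them. RefSeq's table of build GRCm38.p6 holds 300 bases per start, 250 before it and 50 from it on, and had 39 promoters for 35 of the 46 members. The 4 shown belong to Xcl1 at chr1:164935473-164935772, Ccl3 at chr11:83649329-83649628 and Cxcl14 at chr13:56296502-56296801, all on the minus strand, and Ccl8 at chr11:82114935-82115234 on the plus strand. Capitals mark matches to TTCNNNGAA (GAS, the gamma-activated site), GAAA and GAAA with any 2 letters between (ISRE, the site of interferon regulatory factors), GGG and CC with any 5 letters between (NF-kappaB) or TATAAA (the TATA box), searched on both strands, and none of these matches overlapped another motif in these 4 promoters.
Xcl1: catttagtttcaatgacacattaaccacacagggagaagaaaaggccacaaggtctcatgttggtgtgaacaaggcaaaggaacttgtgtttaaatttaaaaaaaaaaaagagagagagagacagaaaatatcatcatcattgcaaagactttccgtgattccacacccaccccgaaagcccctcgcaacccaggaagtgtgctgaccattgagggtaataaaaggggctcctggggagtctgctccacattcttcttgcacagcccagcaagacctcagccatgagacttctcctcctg
Ccl3: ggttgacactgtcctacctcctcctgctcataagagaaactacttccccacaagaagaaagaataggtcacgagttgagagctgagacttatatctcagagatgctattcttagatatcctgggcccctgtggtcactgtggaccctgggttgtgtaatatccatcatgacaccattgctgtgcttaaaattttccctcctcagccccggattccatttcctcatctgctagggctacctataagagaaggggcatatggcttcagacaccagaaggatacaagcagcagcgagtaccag
Ccl8: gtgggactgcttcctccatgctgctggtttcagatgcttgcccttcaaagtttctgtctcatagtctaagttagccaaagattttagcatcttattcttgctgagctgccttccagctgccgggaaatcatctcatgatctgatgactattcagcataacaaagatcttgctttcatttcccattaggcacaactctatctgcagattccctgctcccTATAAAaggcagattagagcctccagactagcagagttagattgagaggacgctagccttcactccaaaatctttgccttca
Cxcl14: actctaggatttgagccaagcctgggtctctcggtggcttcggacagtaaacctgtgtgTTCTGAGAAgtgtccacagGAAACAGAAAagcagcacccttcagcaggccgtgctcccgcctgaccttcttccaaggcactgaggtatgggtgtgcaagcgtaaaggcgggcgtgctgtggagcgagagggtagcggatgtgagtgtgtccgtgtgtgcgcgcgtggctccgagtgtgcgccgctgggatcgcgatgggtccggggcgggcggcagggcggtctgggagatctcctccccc
Counted from the start, Cxcl14 held a GAS match at -191 and an ISRE match at -172, Ccl8 held a TATA match, and the Xcl1 and Ccl3 windows held none of the 4 patterns. Over all 32851 promoters of that table, 8.30% held GAS, 3.44% ISRE, 50.8% the NF-kappaB pattern and 13.6% TATA. Of the 39 member promoters 10.3% held GAS, 5.13% ISRE, 51.3% the NF-kappaB pattern and 28.2% TATA. The ISRE matches lay in Cxcl14 and Ccl19, and the GAS matches in Ccl17, Ccr1l1, Ccr6 and Cxcl14. A match is a run of letters and not a measured site.

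Among the inflammatory CC ligands, 9 of the 10 tested were higher with CTLs and 7 were lower with anti-IFNg than with IgG. Their median differences were 2.71 and -1.53. Ccl2, Ccl7, Ccl8 and Ccl12 form the monocyte chemoattractant group, of which Ccl2, Ccl7 and Ccl12 bind Ccr2 on monocytes. Their probes lie close together on chromosome 11 in build mm8, with that of Ccl11 among them, from Ccl2 at chr11:81853343-81853402 to Ccl8 at chr11:81932801-81932860. Ccl2 had levels of 1.40, 2.97, 2.94 and 2.90 in CTL tumours, against 1.24, 0.91, 1.14 and 0.63 in untreated tumours. The CTL array of day 1 lay near the untreated arrays, and the later CTL arrays all lay above them. With anti-IFNg Ccl2 had 2.34, 1.38 and 1.04, against 2.90, 3.38 and 2.39 with IgG. The antibody array of day 3 lay just under the lowest IgG array, and the other antibody arrays lay further below.

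Ccl7 had -0.24, 1.90, 2.00 and 1.73 in CTL tumours, against -0.37, -0.80, -0.78 and -0.81 in untreated tumours. From day 3 the arms were far apart and each arm varied little. With anti-IFNg Ccl7 had 0.64, -0.67 and -0.72, against 1.44, 1.91 and 1.20 with IgG, without overlap. The second probe of Ccl7 gave differences of 2.57 and -1.70 in the first and second comparison. Ccl8, which in the mouse acts through Ccr8, had 1.66, 4.25, 4.31 and 3.24 in CTL tumours, against 1.30, 1.05, 1.22 and -0.034 in untreated tumours. All CTL arrays from day 3 lay above every untreated array. With anti-IFNg it had 1.23, 2.30 and 2.39, against 3.12, 4.26 and 3.60 with IgG, again without overlap. Ccl12, a mouse ligand of Ccr2, had -0.29, 1.85, 0.83 and 0.35 in CTL tumours, against -0.80, -0.52, -0.51 and -1.45 in untreated tumours. Its highest CTL array was that of day 3, and the arms did not overlap from day 3 on. With anti-IFNg Ccl12 had 0.11, -0.52 and -0.33, against 1.39, 1.40 and 0.60 with IgG.

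The CTL minus untreated differences of this group were 2.04 ± 0.27 for Ccl2, 2.67 ± 0.31 for Ccl7, 3.19 ± 0.40 for Ccl8 and 1.84 ± 0.25 for Ccl12 (limma, adjusted p = 0.00187, 0.000987, 0.00145 and 0.00201, n = 3 days). Those of anti-IFNg minus IgG were -1.31 ± 0.27 for Ccl2, -1.77 ± 0.31 for Ccl7, -1.68 ± 0.40 for Ccl8 and -1.38 ± 0.25 for Ccl12 (limma, adjusted p = 0.0201, 0.0101, 0.0325 and 0.0120, n = 3 days). All 4 genes thus passed in both comparisons, in opposite directions.

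Ccl3, Ccl4 and Ccl5 are made by activated T cells, natural killer cells and macrophages, and they attract T cells and monocytes. Ccl3 and Ccl4 lie close together, at chr11:83464051-83464110 and chr11:83480745-83480804, and Ccl5 lies at chr11:83341989-83342048 (mm8). Ccl3 had -3.77, 0.056, 0.34 and -0.55 in CTL tumours, against -3.74, -4.06, -3.43 and -3.32 in untreated tumours. On day 1 both arms were at the same low level, and from day 3 every CTL array was well above every untreated array. With anti-IFNg Ccl3 had -1.09, -2.20 and -3.03, against -0.18, -0.0015 and 1.55 with IgG. The arms did not overlap, and they were closest on day 3 and furthest apart on day 7. Ccl4 had -1.95, 2.70, 2.84 and 1.57 in CTL tumours, against -1.89, -1.98, -1.62 and -1.21 in untreated tumours. As for Ccl3, the CTL array of day 1 stood at the untreated level and the later ones far above it. With anti-IFNg Ccl4 had 0.85, -0.64 and -1.22, against 2.19, 2.42 and 3.45 with IgG, and the IgG array of day 7 was the highest of all 14 arrays for both genes. The same array held the highest level of the inflammatory cytokine gene Il1b, at 2.05, beside the high S100a8, S100a9 and Retnlg given above. Their part in the Ccl3 and Ccl4 results was not tested, and not all neutrophil markers were high there. Ccl5 had 1.39, 5.25, 5.33 and 3.94 in CTL tumours, against 1.10, 1.31, 1.03 and 1.45 in untreated tumours. Days 3 and 5 were the high points of the CTL arm, and day 7 still lay above all untreated arrays. With anti-IFNg Ccl5 had 1.96, 2.07 and 1.47, against 4.62, 5.04 and 3.60 with IgG. The antibody array of day 7 stood at the level of untreated tumours of that day.

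The CTL minus untreated differences were 3.55 ± 0.61 for Ccl3, 3.97 ± 0.60 for Ccl4 and 3.58 ± 0.33 for Ccl5 (limma, adjusted p = 0.00494, 0.00303 and 0.000358, n = 3 days). Anti-IFNg minus IgG gave -2.56 ± 0.61 for Ccl3, -3.02 ± 0.60 for Ccl4 and -2.59 ± 0.33 for Ccl5 (limma, adjusted p = 0.0312, 0.0162 and 0.00363, n = 3 days), or 8.12-fold lower for Ccl4 and 6.01-fold lower for Ccl5. The second probe of Ccl5 gave 3.57 and -2.57. The same-day antibody differences of Ccl3 were -0.92, -2.20 and -4.58 on days 3, 5 and 7, and the call was lost without any one of them, at -3.39 without day 3, -2.75 without day 5 and -1.56 without day 7 (limma, adjusted p = 0.0694, 0.236 and 0.0948). Ccl4 passed at -3.86 without day 3, but not at -3.00 without day 5 or at -2.20 without day 7 (limma, adjusted p = 0.0412, 0.207 and 0.0631).

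Ccl6 and Ccl9 are ligands of Ccr1 found in rodents and made largely by myeloid cells. Ccl6 had 2.78, 4.09, 5.09 and 4.77 in CTL tumours, against 2.54, 1.75, 1.99 and 1.96 in untreated tumours. With anti-IFNg it had 3.72, 3.71 and 2.22, against 3.94, 4.98 and 4.46 with IgG. The antibody and IgG arms did not overlap, but the day 3 arrays were nearly level. Ccl9 had 0.57, 1.25, 2.47 and 1.93 in CTL tumours, against 0.41, -0.074, -0.032 and 0.16 in untreated tumours. With anti-IFNg it had 1.47, 1.35 and -0.0001, against 1.18, 2.23 and 1.68 with IgG, and these arms overlapped. Their CTL minus untreated differences were 2.75 ± 0.38 for Ccl6 and 1.86 ± 0.40 for Ccl9 (limma, adjusted p = 0.00208 and 0.0114, n = 3 days). Neither passed in the antibody comparison, where the differences were -1.24 ± 0.38 for Ccl6 and -0.76 ± 0.40 for Ccl9 (limma, adjusted p = 0.0700 and 0.242, n = 3 days). Ccl24, an eosinophil attractant that binds Ccr3, did not pass in either comparison (1.26 ± 0.73 with CTLs and 0.72 ± 0.73 with anti-IFNg), and its CTL difference was large on day 3 alone (3.25, 0.091 and 0.45).

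Xcl1, also called lymphotactin, is the one XC ligand of the mouse, made by activated CD8 T cells and natural killer cells, and it attracts dendritic cells that carry Xcr1. Its probe lies at chr1:166768564-166768623 on the minus strand (mm8). Xcl1 had -4.66, -0.39, -1.27 and -1.92 in CTL tumours, against -6.26, -6.71, -6.56 and -6.53 in untreated tumours. No untreated array was well above background, nor was the CTL array of day 1. With anti-IFNg Xcl1 had -1.83, -1.66 and -4.16, against -0.42, -0.71 and -2.64 with IgG. All 6 of these arrays were well above background, the antibody array was the lower one on each day, and the arms overlapped through the IgG array of day 7. The CTL minus untreated difference was 5.40 ± 0.50 (limma, adjusted p = 0.000358, n = 3 days), which makes the gene at least 9.20-fold higher when each untreated array is set to the lowest signal well above background. Anti-IFNg minus IgG gave -1.29 ± 0.50, which did not pass (limma, adjusted p = 0.130, n = 3 days), though it did with only these arms fitted (adjusted p = 0.0362, and 0.0759 to 0.354 under the other alternatives). The receptor gene Xcr1 was well above background on all arrays and varied little, with -1.79, -1.59, -1.25 and -1.18 in CTL tumours, against -1.73, -1.76, -1.74 and -1.54 in untreated tumours. Its differences of 0.34 ± 0.14 with CTLs and -0.34 ± 0.14 with anti-IFNg did not pass. A second Xcr1 probe was well above background on no array, at a mean level of -6.23 beside -1.68 for the probe used.

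Cxcl16 and Cx3cl1 are the ligands made as membrane proteins, and a protease can release them. Cxcl16 binds Cxcr6, a receptor of effector T cells. The probe of Cxcl16 spans a splice junction of the gene at chr11:70272214-70274955 (mm8). Cxcl16 had -2.74, 0.59, 1.02 and 0.09 in CTL tumours, against -3.12, -3.13, -3.29 and -3.73 in untreated tumours. From day 3 on the lowest CTL array was far above the highest untreated array. With anti-IFNg Cxcl16 had -2.21, -1.93 and -2.82, against -0.23, 0.77 and -0.35 with IgG, without overlap. The differences were 3.95 ± 0.19 for CTL minus untreated (limma, adjusted p = 2.35e-05, n = 3 days) and -2.38 ± 0.19 for anti-IFNg minus IgG (limma, adjusted p = 0.000767, n = 3 days), or 5.21-fold lower with the antibody. Its second probe gave 2.81 and -1.94. Cxcl16 was the member that passed in the antibody comparison whichever single day was left out.

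Cxcr6 itself had -6.48, -1.55, -0.66 and -3.09 in CTL tumours, against -5.40, -5.39, -3.17 and -4.06 in untreated tumours. The CTL array of day 1 was the lowest of all and not well above background, and the CTL array of day 7 lay just above the highest untreated array. With anti-IFNg Cxcr6 had -3.40, -2.92 and -4.25, against -2.10, -1.22 and -2.65 with IgG, without overlap. The difference was 2.44 ± 0.46 for CTL minus untreated, which passed (limma, adjusted p = 0.00732, n = 3 days), and -1.53 ± 0.46 for anti-IFNg minus IgG, which did not (limma, adjusted p = 0.0673, n = 3 days), though it did with only these arms fitted (adjusted p = 0.0202, and 0.0516 to 0.382 under the other alternatives). Cx3cl1, also called fractalkine, had -2.77, 0.41, -1.42 and -2.30 in CTL tumours, against -3.07, -2.87, -2.49 and -2.48 in untreated tumours. Its CTL array of day 3 stood far above all others of that arm. With anti-IFNg Cx3cl1 had -3.26, -3.45 and -3.00, against -0.38, -1.98 and -2.95 with IgG. Neither difference passed, at 1.51 ± 0.62 with CTLs and -1.47 ± 0.62 with anti-IFNg (limma, adjusted p = 0.0958 and 0.158, n = 3 days).

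Cxcl14, an epithelial chemokine, had -4.79, -2.69, -1.75 and -2.96 in CTL tumours, against -4.85, -4.81, -4.79 and -3.19 in untreated tumours. The CTL arrays of days 3, 5 and 7 were well above background, and so was the untreated array of day 7, which lay close to the CTL array of that day. With anti-IFNg Cxcl14 had -4.24, -6.10 and -6.38, against -3.10, -1.71 and -2.67 with IgG. All 3 IgG arrays and no antibody array were well above background. The gene was at least 3.58-fold lower with the antibody, with a fitted difference of -3.08 ± 0.72 (limma, adjusted p = 0.0290, n = 3 days). CTL minus untreated gave 1.80 ± 0.72 and did not pass (limma, adjusted p = 0.0891, n = 3 days). The probe of Cxcl14 lies at chr13:56298339-56298398 (mm8). Cxcl12, a stromal ligand of Cxcr4 and Cxcr7, had -2.77, -2.40, -1.57 and -2.22 in CTL tumours, against -2.32, -3.13, -2.38 and -1.55 in untreated tumours, and -5.06, -3.90 and -3.45 with anti-IFNg, against -4.19, -2.65 and -2.81 with IgG. The antibody array was the lower one on each of the 3 days, but the arms overlapped. The differences of 0.29 ± 0.30 with CTLs and -0.92 ± 0.30 with anti-IFNg did not pass, and its receptor genes did not pass either. Cxcr4 had -3.33, -3.14, -2.77 and -3.18 in CTL tumours, against -4.79, -3.74, -4.38 and -4.06 in untreated tumours. Its difference of 1.03 ± 0.34 missed the threshold narrowly (limma, adjusted p = 0.0502, n = 3 days). It passed under some alternatives, such as quantile normalization, the authors' log2 table, 1 CTL effect for all 4 days and without day 7. Under others it did not, such as averaged probes, the compared arms alone, and without day 3 or day 5. With anti-IFNg Cxcr4 gave -1.10 ± 0.34, and Cxcr7 gave -0.27 ± 0.53 with CTLs and 0.36 ± 0.53 with anti-IFNg.

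**Figure D2:**
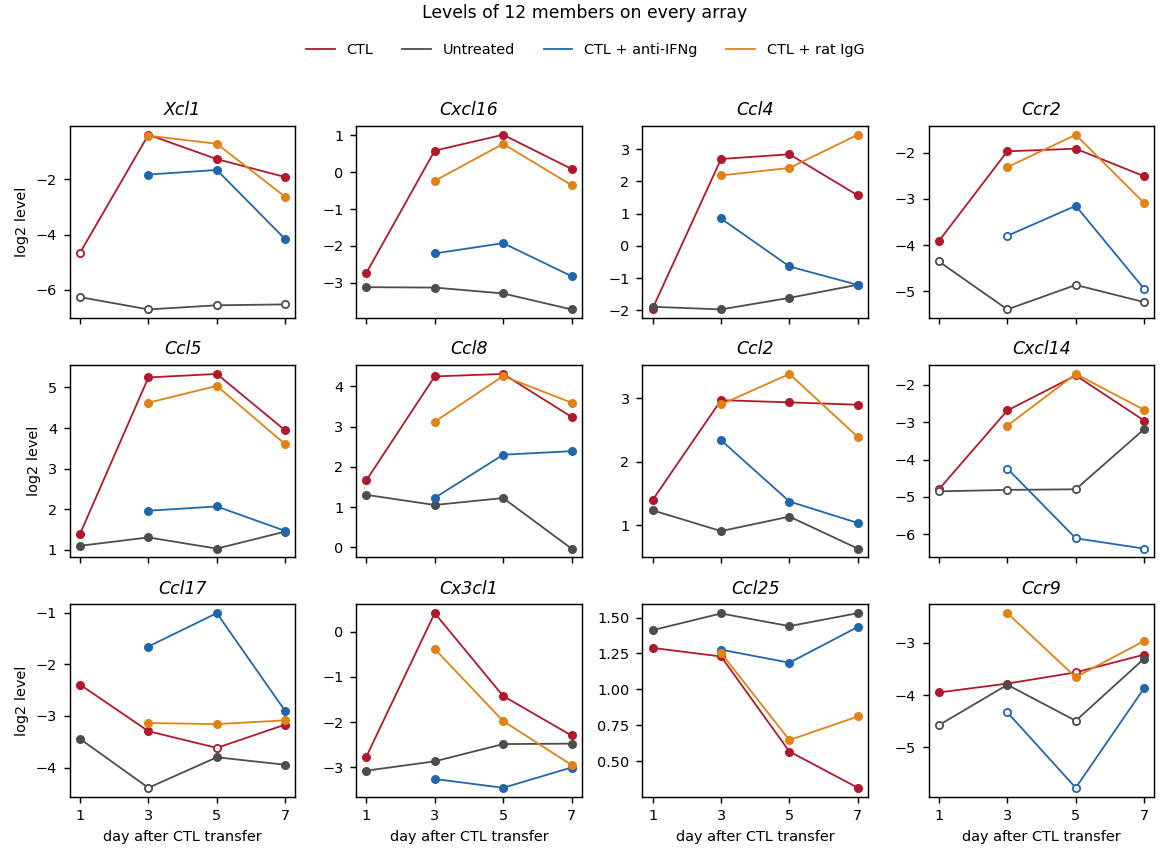
Log2 levels of 12 members by day after CTL transfer, 1 line per arm (red, CTL; grey, untreated; blue, CTL with anti-IFNg; orange, CTL with rat IgG), with 1 array per point. Filled points were well above background and open points were not, and each panel has its own axis. Cxcl16, Ccl4, Ccl5 and Ccl8 lie near the untreated line on day 1 and above it from day 3 in the CTL arm, and Ccl17 is highest with anti-IFNg on days 3 and 5.

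The homeostatic CC ligands guide cells in lymphoid organs, gut and skin, and of the 3 tested 1 was higher and 2 were lower with CTLs. Ccl19, a ligand of Ccr7 in lymphoid tissue, had -1.87, -0.50, 0.23 and -0.10 in CTL tumours, against -1.71, -2.17, -1.97 and -0.43 in untreated tumours. The arms overlapped because the untreated array of day 7 was high. Its difference was 1.40 ± 0.41 (limma, adjusted p = 0.0351, n = 3 days), and a second, dimmer probe gave 2.52. With anti-IFNg Ccl19 had -1.30, -1.32 and -1.75, against -1.32, -0.69 and 0.046 with IgG, an overlap on day 3 and a difference that did not pass (limma, -0.80 ± 0.41, adjusted p = 0.232, n = 3 days). Ccl25, the thymic and intestinal ligand of Ccr9, was one of the genes lower with CTLs. It had 1.29, 1.23, 0.57 and 0.31 in CTL tumours, against 1.41, 1.53, 1.44 and 1.53 in untreated tumours. The CTL arrays of days 5 and 7 were the low ones, and from day 3 all CTL arrays lay below the untreated ones. Ccl27, a skin ligand of Ccr10, had -0.48, -0.73, -1.13 and -0.79 in CTL tumours, against -0.31, -0.28, -0.53 and -0.35 in untreated tumours, with no overlap from day 3 on. Mouse Ccl27 has near-identical gene copies that this probe may not separate.

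Ccl25 and Ccl27 were lower with CTLs by small amounts, -0.80 ± 0.19 for Ccl25 and -0.50 ± 0.10 for Ccl27 (limma, adjusted p = 0.0177 and 0.0108, n = 3 days). With anti-IFNg Ccl25 had 1.28, 1.19 and 1.44, against 1.25, 0.65 and 0.81 with IgG, and Ccl27 had -0.32, -0.41 and -0.30, against -0.48, -0.45 and -0.50 with IgG. Neither passed there, at 0.40 ± 0.19 and 0.13 ± 0.10 (limma, adjusted p = 0.211 and 0.430, n = 3 days). Ccl25 has a second probe that gave -0.96 with CTLs and -0.22 with anti-IFNg, so its probes differ in sign in the antibody comparison. The calls of both genes were lost without day 5 or day 7, and that of Ccl27 also without day 3 and with normexp correction (-0.23).

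Ccl1, which binds Ccr8, had -5.13, -3.87, -3.73 and -3.87 in CTL tumours, against -6.29, -6.57, -6.28 and -5.99 in untreated tumours. It passed at 2.45 ± 0.56 (limma, adjusted p = 0.0149, n = 3 days), but no CTL and no untreated array was well above background, so no fold is given. With anti-IFNg Ccl1 had -3.70, -2.66 and -5.24, against -3.25, -3.30 and -5.33 with IgG. The day 3 and day 5 arrays of both these arms were well above background, and they did not separate (0.10 ± 0.56). Ccl17, which binds Ccr4 on regulatory and helper T cells and is made by dendritic cells and macrophages, was the member with the most positive antibody difference. It had -1.65, -1.01 and -2.90 with anti-IFNg, against -3.14, -3.16 and -3.08 with IgG, without overlap. The difference of 1.27 ± 0.40 did not pass (limma, adjusted p = 0.0759, n = 3 days), though it did without day 7. CTL tumours had -2.39, -3.30, -3.62 and -3.17, against -3.44, -4.39, -3.80 and -3.95 in untreated tumours, a difference of 0.69 ± 0.40 that did not pass. Among the neutrophil attractants that bind Cxcr2, Cxcl2 alone was tested. It was well above background on 1 array each of the CTL, antibody and IgG arms, and its antibody differences on days 3, 5 and 7 had both signs (-0.094, 2.72 and -5.78). Cxcl4, or platelet factor 4, gave 0.61 ± 0.30 with CTLs and -0.99 ± 0.30 with anti-IFNg, and neither passed.

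Of the 10 CC receptor genes described 5 were tested, and Ccr2 and Ccr7 were higher with CTLs and lower with anti-IFNg than with IgG. Ccr2, the monocyte receptor of Ccl2, Ccl7 and Ccl12, had -3.91, -1.97, -1.91 and -2.51 in CTL tumours, against -4.35, -5.39, -4.86 and -5.23 in untreated tumours. No untreated array was well above background, and all 4 CTL arrays were. With anti-IFNg Ccr2 had -3.80, -3.15 and -4.94, against -2.31, -1.61 and -3.09 with IgG, and 1 antibody array was well above background. Ccr7, the receptor of Ccl19 on naive T cells and migrating dendritic cells, had -3.74, -1.61, -2.31 and -2.59 in CTL tumours, against -4.31, -4.46, -4.38 and -6.04 in untreated tumours. No untreated array was well above background. With anti-IFNg Ccr7 had -3.87, -3.66 and -4.36, against -2.66, -2.62 and -3.24 with IgG, without overlap.

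CTL minus untreated gave 3.03 ± 0.28 for Ccr2 and 2.79 ± 0.26 for Ccr7 (limma, adjusted p = 0.000341 and 0.000398, n = 3 days). With untreated arrays set to the lowest processed signal well above background, Ccr2 was at least 4.81-fold and Ccr7 at least 4.61-fold higher. With normexp correction their differences of 1.44 and 1.28 lay under these bounds. Anti-IFNg minus IgG gave -1.63 ± 0.28 for Ccr2 and -1.12 ± 0.26 for Ccr7 (limma, adjusted p = 0.00906 and 0.0290, n = 3 days). Ccr9, the receptor of Ccl25, had -4.33, -5.78 and -3.87 with anti-IFNg, against -2.43, -3.66 and -2.96 with IgG. Of its arrays 1 of the antibody arm and all 3 of the IgG arm were well above background, and the arms did not overlap. It passed at -1.64 ± 0.33 (limma, adjusted p = 0.0177, n = 3 days). CTL tumours had -3.95, -3.78, -3.57 and -3.23, against -4.58, -3.80, -4.49 and -3.30 in untreated tumours, an overlap and a difference of 0.34 ± 0.33 that did not pass. Ccr3, the receptor of the eotaxins, was well above background on 3 arrays of 3 different arms, and neither it nor Ccr6 passed in either comparison. Ccr6, the receptor of Ccl20, had a single high array, that of IgG on day 7 at -0.87, beside a range from -4.02 to -2.89 on the other arrays.

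The 15 members that were not tested were dim. The ligands Ccl11 (an eotaxin), Ccl20 (the ligand of Ccr6), Ccl21c (a ligand of Ccr7), Cxcl5 and Cxcl15 (neutrophil attractants) and Cxcl13 (a B cell attractant) reached the well-above-background mark nowhere, nor did the receptors Ccr4, Ccr8 and Cx3cr1. Ccl22, a ligand of Ccr4 like Ccl17, reached it on 1 CTL and 1 untreated array, Ccl28 on 1 untreated and 1 IgG array, and Cxcl1 on 1 antibody and 1 IgG array. The receptors Ccr1 and Ccr10 reached it on 1 antibody array each, and Ccr1l1 on 1 untreated array. For these genes no level is given as a group value, and a signal below the mark is not evidence that a gene is silent.

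In build mm8 the used probes of several members lie within 200000 bases of the next. On chromosome 11 from 81853343 to 81993088 lie Ccl2, Ccl7, Ccl11, Ccl12, Ccl8 and Ccl1, of which 5 were tested, 5 were higher with CTLs and 4 were lower with anti-IFNg than with IgG. On the same chromosome from 83341989 to 83480804 lie Ccl5, Ccl9, Ccl6, Ccl3 and Ccl4, all 5 higher with CTLs and 3 lower with the antibody. On chromosome 9 from 123629914 to 123957067 lie Ccr9, Cxcr6, Xcr1, Ccr1, Ccr1l1, Ccr3 and Ccr2, of which 5 were tested, 2 were higher with CTLs and 2 were lower with the antibody. On chromosome 5 from 91836379 to 91980767 lie Cxcl5, Cxcl4, Cxcl15, Cxcl1 and Cxcl2, of which 2 were tested and none passed in either comparison. Neighbouring CC ligand genes are similar in sequence, and cross-hybridisation between them was not tested.

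A further comparison asked what differed from untreated tumours when CTLs were given with anti-IFNg. Of the 31 tested members 1 was higher, while 0.153% of all genes tested were higher. This was Xcl1 at 4.04 ± 0.50, at least 3.59-fold (limma, adjusted p = 0.0362, n = 3 days), and the call was lost without day 3 or day 5, without the block for day (adjusted p = 0.107), and with normexp correction, where the difference was 1.04. The median difference of the members was 0.58, beside -0.028 over all genes, and no member was lower, with 0.00587% of all genes tested lower. At an unadjusted p under 0.05, 13 members were higher and 2 were lower (limma), beside 2.71% and 4.19% of all genes. Members with positive differences that did not pass include Ccl1 (2.41 ± 0.56, with no untreated array well above background), Ccl17 (2.19 ± 0.40) and Cxcl16 (1.07 ± 0.19). The most negative was Cxcl12 at -1.78 ± 0.30 (limma, adjusted p = 0.118, n = 3 days), whose antibody arrays (-5.06, -3.90 and -3.45) all lay below the untreated ones (-2.32, -3.13, -2.38 and -1.55). Same-day medians over the 31 members were 0.64, 0.65 and -0.071 on days 3, 5 and 7.

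CTLs with IgG, set against the same untreated arrays, had 15 of the 31 tested members higher and none lower, while 7.47% of all genes tested were higher and 11.2% were lower. At an unadjusted p under 0.05, 18 members were higher and 2 were lower (limma), beside 12% and 20.9% of all genes. Without day 5 the count of 15 fell to 6, beside 1.82% of all genes. The untreated arrays are shared with the comparisons above, so the values are given side by side and are not independent. Ccl5 had 0.57 ± 0.33 with anti-IFNg, 3.16 ± 0.33 with IgG and 3.58 ± 0.33 with CTLs alone, each against untreated tumours. Cxcl16 had 1.07 ± 0.19, 3.45 ± 0.19 and 3.95 ± 0.19 in the same order, and Xcl1 had 4.04 ± 0.50, 5.34 ± 0.50 and 5.40 ± 0.50. Set directly against CTLs alone, CTLs with IgG gave no member that passed, and 0.0117% of all genes tested did. At an unadjusted p under 0.05, 1 member was higher and 3 were lower, or 4 of 31, beside 18.8% of all genes in either direction, and the members' differences ran from -1.15 for Cxcl12 to 0.92 for Ccr6.

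**Figure D3:**
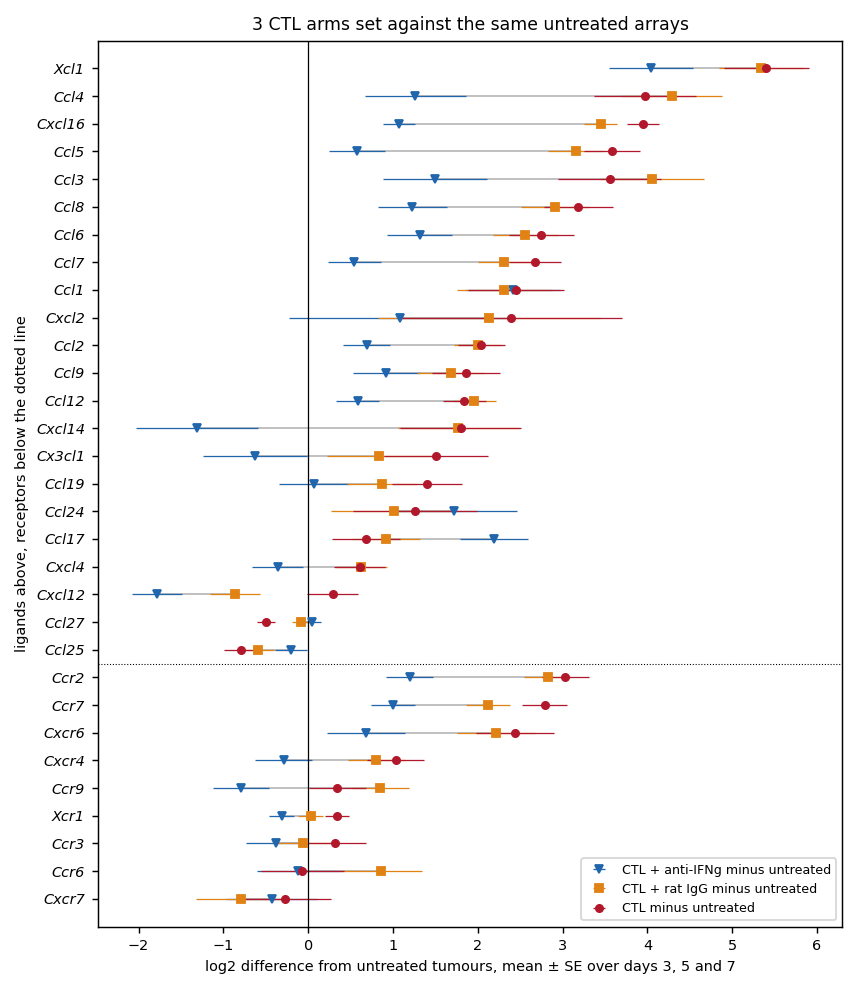
Log2 differences from untreated tumours of the 31 members (ligands above, receptors below the dotted line) for CTLs with anti-IFNg (blue triangles), CTLs with rat IgG (orange squares) and CTLs alone (red circles). Points are means over days 3, 5 and 7 with standard errors of the limma fit. All 3 series use the same untreated arrays. Blue lies left of orange and red for most members, and right of both for Ccl17, Ccl24, Ccl25 and Ccl27.

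On day 1 there was 1 CTL and 1 untreated array, so the differences are values without a test. Their median over the 31 members was 0.19, beside same-day medians of 2.12, 2.07 and 1.27 on days 3, 5 and 7. Ccl3, Ccl4 and Ccl7 had day 1 differences of -0.026, -0.055 and 0.13. Cxcr4 had 1.46 and Xcl1 1.60, where neither Xcl1 array was well above background. The CTL effect of days 3, 5 and 7 exceeded that of day 1 for 1 member, with 0.834% of all genes tested above their day 1 effect in the same way. This was Cxcl16 at 3.57 ± 0.38 (limma, adjusted p = 0.00829), where the day 1 pair is assumed to vary like the later pairs, and the call was lost without day 3 or day 5 and with the compared arms alone. Over the 31 members, the differences of CTL minus untreated and of anti-IFNg minus IgG had a Pearson correlation of -0.63 and a Spearman rank correlation of -0.69. This describes genes and not replicates, and both comparisons share days and slides.

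Some genes that act with chemokines moved too. Beside the counts below, 10.1% of all genes tested were higher and 21.4% lower with CTLs, and 5.93% were lower with the antibody. Here too a gene bright only with CTLs entered the test because it was bright there. Other genes of these lists hardly moved with CTLs, such as Mif at -0.098, Grk2 at -0.00023 and Rela at 0.019. In a list of 15 chemokine-related genes outside the rule 9 were tested, 4 were higher and 1 was lower with CTLs, and 4 were lower with anti-IFNg than with IgG. Ccrl2, an atypical receptor that presents chemerin, gave 3.75 ± 0.40 and -3.73 ± 0.40, and Rarres2, which encodes chemerin, gave 2.59 ± 0.44 and -2.52 ± 0.44. Cd74, the invariant chain of MHC class II and a receptor of Mif, gave 4.96 ± 0.14 and -2.89 ± 0.14. Dpp4, a protease that trims chemokines, was at least 1.56-fold higher with CTLs and at least 1.50-fold lower with the antibody. The gene lower with CTLs was Ppbp, a platelet chemokine, at -1.63 ± 0.47, named after its value was seen. Of 24 genes of receptor signalling and leukocyte migration 21 were tested, 11 were higher and 1 was lower with CTLs, and 12 were lower with the antibody. Among them Vav1 gave 3.23 ± 0.17 and -2.14 ± 0.17, Rac2 3.44 ± 0.28 and -1.93 ± 0.28, Dock2 2.79 ± 0.29 (at least 2.59-fold) and -1.29 ± 0.29, and Rassf5 1.94 ± 0.14 (at least 2.41-fold) and -0.63 ± 0.14. Vav1 and Dock2 are guanine nucleotide exchange factors, Rac2 is a small GTPase of leukocytes and Rassf5 is an effector of the GTPase Rap. Of 13 genes of NF-kappaB and inflammatory cytokines 12 were tested, 8 were higher with CTLs and 5 were lower with the antibody. Ltb, which encodes lymphotoxin beta, gave 4.95 ± 0.25 and -1.90 ± 0.25, and Tnf was at least 5.00-fold higher with CTLs and at least 4.17-fold lower with the antibody. Nfkbia, an inhibitor of NF-kappaB, gave 1.32 ± 0.24 and -1.19 ± 0.24, and Tnfaip3 1.00 ± 0.17 and -0.94 ± 0.17.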

How the data were processed

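Pooled tumour RNA was hybridised to 14 one-colour Agilent arrays. Feature Extraction 9.5, per the submitters' processing notes, made the spot intensities, and per the file headers the processed intensity is background-subtracted and detrended within each array, with coordinates in build mm8. The log2 table deposited by the authors equalled log2 of that intensity up to a constant per array over all 41174 probes (r = 1), and how they set that constant is not given in the sources used here.

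The level of a probe was log2 of the processed intensity minus the 75th percentile of its array over all non-control spots, without spots flagged as outliers and with spots of a probe averaged. The 29 probes missing on any array were left out. Genes well above background on at least 3 arrays, 17031 in all, were fitted with limma 3.58.1 in R 4.3.3 on all 14 arrays, with day as a block and a separate CTL term for day 1, leaving 6 residual degrees of freedom, and p-values were two-sided and Benjamini-Hochberg adjusted. Probe names are those of the files, with 24375 probes named through RefSeq accessions, so that Ccl27, Cxcl4 and Cxcr7 stand for Ccl27a, Pf4 and Ackr3. The number of arrays limits the precision. On simulated data 64% of genes changed by 1 log2 unit and 84% of those changed by 2 were recovered for CTL against untreated, and 67% and 85% for anti-IFNg against IgG, over 17031 genes. A lower bound of a fold sets each dim array to the lowest signal well above background on it, or to the probe's own signal where that is higher. Such a bound holds for the processed signal only, and a difference with normexp correction can be smaller.

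Day numbers mark shared slides. Over the 18 same-day pairs the deviations from arm means correlated at -0.044 to 0.51, with 12 pairs over 0.1. The members, the gene lists and the model were chosen with earlier results of these data known. Genes described in every array are those that passed in either main comparison and the 5 with the largest difference in each, and of each related list up to 4 genes with the smallest p. Alternatives were normexp correction, quantile normalization, the authors' log2 table, other filters and models, averaged probes, and leaving out each day. The promoters were those of RefSeq's table, and 11 members without an entry were Ccl2, Ccl4, Ccl5, Ccl7, Ccl11, Ccl21c, Ccl24, Cxcl5, Cxcl16, Ccr7 and Ccr10. Protein sequences were not used here, and 1 further gene that the rule takes in is not reported here.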

Additional observations from a re-analysis of the deposited data

Results flagged for a closer look

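Among the 31 tested members, the levels of each arm of 4 arrays were searched for an array whose gap to its nearest neighbour exceeded Dixon's critical share of the arm's range for 4 values. This held in 7 of 62 arms, 3 in CTL and 4 in untreated tumours, where chance alone gives about 1 in 20.

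In CTL tumours the day 1 array stood below the later ones in each case. Ccl2, the monocyte attractant, was at 1.40 on day 1, beside 2.90 to 2.97 later. Ccl7 was at -0.24, beside 1.73 to 2.00. Ccl1 was at -5.13, beside -3.87 to -3.73, and none of its 4 CTL arrays was well above background.

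In untreated tumours 3 of the 4 concerned day 7. Cxcl14 was at -3.19 on day 7, the one untreated array well above background, beside -4.85 to -4.79 on the others. Ccr7 was at -6.04 on day 7, beside -4.46 to -4.31, with none of these arrays well above background. Xcr1 was at -1.54 on day 7, beside -1.76 to -1.73, a small step. Ccl7 was at -0.37 on day 1, beside -0.81 to -0.78.

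The CTL effect of days 3, 5 and 7 was larger than that of day 1 by 3.57 for Cxcl16 on the log2 scale, by a test of that difference in the limma fit (adjusted p = 0.00829), with the single day 1 pair assumed to vary like the others. The call was lost without day 3 and without day 5.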

How the results depend on the processing

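No member's difference changed sign under any alternative run, over the 18 calls of CTL against untreated tumours, the 12 of anti-IFNg against IgG and the call of Xcl1 with anti-IFNg. In CTL against untreated tumours 189 re-tests of these calls passed and 26 did not, and in anti-IFNg against IgG 88 passed and 56 did not. Ccl2, Ccl5, Ccl7, Ccl12, Cxcl16, Xcl1, Ccr2 and Ccr7 passed with CTLs under all 12 alternatives. Leaving out 1 day in turn gave 8 to 17 members higher and 0 to 1 lower with CTLs, the 8 without day 5. It gave 1 to 5 lower and 0 to 1 higher (Ccl17, without day 7) with anti-IFNg against IgG, the 1 being Cxcl16 without day 5. It gave 0 to 1 higher with anti-IFNg against untreated tumours, 6 to 16 with IgG against untreated tumours, the 6 without day 5, and 0 to 4 for the CTL effect of days 3, 5 and 7 minus day 1. With 1 CTL effect for all 4 days, members lower were 1 with CTLs and 0 with anti-IFNg against IgG, and 0 were higher with anti-IFNg against untreated tumours. With the compared arms alone these counts were 0, 7 and 0, and 0 members exceeded their day 1 effect. With normexp correction 1 member was lower with CTLs and 0 were higher with anti-IFNg against untreated tumours, and with no filter on dim probes 0 were higher in that comparison too. Without the replicate block for day 0 members were higher with anti-IFNg against untreated tumours and 6 exceeded their day 1 effect, and the counts of 16, 2, 12 and 15 moved by less than 1.5 times, with Ccr7 and Ccr9 losing their calls in anti-IFNg against IgG. With the filter that asks for signal well above background on every array of an arm, 2 members, Ccl5 and Cxcl16, exceeded their day 1 effect. Over all genes, normexp moved the median of CTL minus untreated to 0.080, against -0.10, and that of the members to 1.19. The number called higher and lower over all genes was 1722 and 3641 with CTLs (normexp 2091 and 2557, compared arms alone 576 and 260, 1 CTL effect 828 and 1009) and 1126 and 1010 with anti-IFNg against IgG (normexp 140 and 503, compared arms alone 320 and 591, 1 CTL effect 1 and 1). The cause was not tested, though the fits without a day or with 2 arms rest on fewer arrays. Signal over background limits the dim members Ccl1, Xcl1, Cxcl2, Cxcl14, Ccr2, Ccr3 and Ccr9. Members well above background nowhere also differed between arms, such as Ccr8 at 0.63 and Cxcl13 at 0.62 for CTL minus untreated. For anti-IFNg minus IgG both gave -0.28, while Ccl20 gave 0.17.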

Other observations

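A few chemokine genes had isolated high values. Ccr1 reached -2.20 and Ccr10 -0.86 on the array of CTLs with anti-IFNg on day 3, the 1 array on which either was well above background. Cxcl1 reached -0.97 on the IgG array of day 5, with -2.84 on the antibody array of day 7 and at most -4.98 elsewhere. Cxcl2 reached -1.17 on the IgG array of day 7, with -2.52 on the antibody array of day 5. Ccr6, well above background on 13 arrays, reached -0.87 on the IgG array of day 7 and at most -2.89 elsewhere. Each is the value of 1 pool of 3 tumours.

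Several genes had a second probe that differed from the one used. For Cxcr4 the probes gave 1.03 and 0.35 between CTL and untreated tumours, and for Ccl19 they gave 1.40 and 2.52 there and -0.80 and -2.69 between anti-IFNg and IgG. The second probe of Cx3cl1, well above background on 1 array, gave 0.27 where the first gave 1.51. That of Xcr1 was well above background on no array, where the first was on all 14 arrays.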
